A study of Mus musculus with 8 samples.

Results

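Galectins and Havcr2, the gene of the galectin-9 receptor TIM-3, were examined in subpopulations of a mouse T cell lymphoma sorted by CD44. The members were the probe sets whose only gene symbol in the platform annotation is Lgals1, Lgals2, Lgals3, Lgals4, Lgals7, Lgals8, Lgals9 or Havcr2. They comprised 11 probe sets of 8 genes, out of 20380 probe sets with 1 symbol and 12393 genes on the array. They were chosen by gene family with their CD44hi and CD44lo values at each replicate number in view, so those values are given as a description and no test was made of them. The RNA was that of stable lines of a mouse T cell lymphoma deficient in Snf5 (gene Smarcb1), which belongs to the SWI/SNF chromatin remodellers. Both groups carry this deficiency. The lines had been purified into a CD44hi and a CD44lo subpopulation, each hybridised to 4 Affymetrix Mouse 430A 2.0 arrays (replicates 1 to 4). The number of lines, the promoter that drove the deletion and the age of the animals are not given here. Nothing in the labels places replicates in separate cultures or animals, so a p-value reflects the spread between these arrays alone, and that spread may be technical.

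Galectins are secreted and cytoplasmic lectins that bind beta-galactoside sugars through a conserved carbohydrate-recognition domain. Prototype galectins (Lgals1, Lgals2, Lgals7) carry a single such domain and can pair, the chimera galectin (Lgals3) joins it to a long flexible tail through which molecules assemble, and tandem-repeat galectins (Lgals4, Lgals8, Lgals9) join different domains by a linker. On T cells, galectin-1 and galectin-9 can trigger death and galectin-3 holds glycosylated receptors in a lattice on the surface, while TIM-3 is a receptor of T helper 1 and exhausted CD8 T cells. How strongly a galectin binds depends on the branching and sialylation of the glycans that the cell displays.

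Array medians lay between 320.3 and 339.1 on the linear intensity scale, and precision is limited by having 4 arrays a group. Some T cell genes were high in both groups: Cd3e was at 13.06 in CD44hi and 13.10 in CD44lo and Cd8a at 13.86 and 13.87 (mean log2 intensity). Others, Thy1 at 4.47 and 4.55, Cd5 at 4.32 and 4.29, and Cd4 at 5.23 and 5.17, lay under the lower quartile of all values (5.26). As a sign of background, 27 bacterial control probe sets had medians of 3.95 to 4.12 per array. Arrays numbered 1 and 3 resembled each other, as did those numbered 2 and 4, in both groups. The labels do not say what the numbers stand for. Because these are RNA values of bulk samples, fewer cells carrying a transcript and less of it per cell cannot be told apart.

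Lgals9 was far higher in CD44hi, by 4.58-fold on the linear scale. Of the other members, Lgals7 was slightly higher without overlap, Lgals3 was higher at replicate numbers 1 and 3 and nearly level at 2 and 4, and Havcr2 was higher at numbers 1 and 3 and lower at 2 and 4. Lgals4 separated the replicate numbers in both groups alike, and Lgals1, Lgals2 and Lgals8 differed little between the subpopulations. In 2 of the 11 probe sets, those of Lgals9 and Lgals7, the 4 CD44hi values lay above all 4 CD44lo values. In no member did they lie below. Over all probe sets with 1 gene the groups did not overlap, in either direction, in 9.5%, and CD44hi was the higher in 4.74%. The difference had the same sign at all 4 replicate numbers in 3 member probe sets (Lgals9 and Lgals7 higher, 1 of Lgals8 lower) and in 27.6% of all probe sets. Since these values chose the members, nothing is read from those comparisons.

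**Figure D1:**
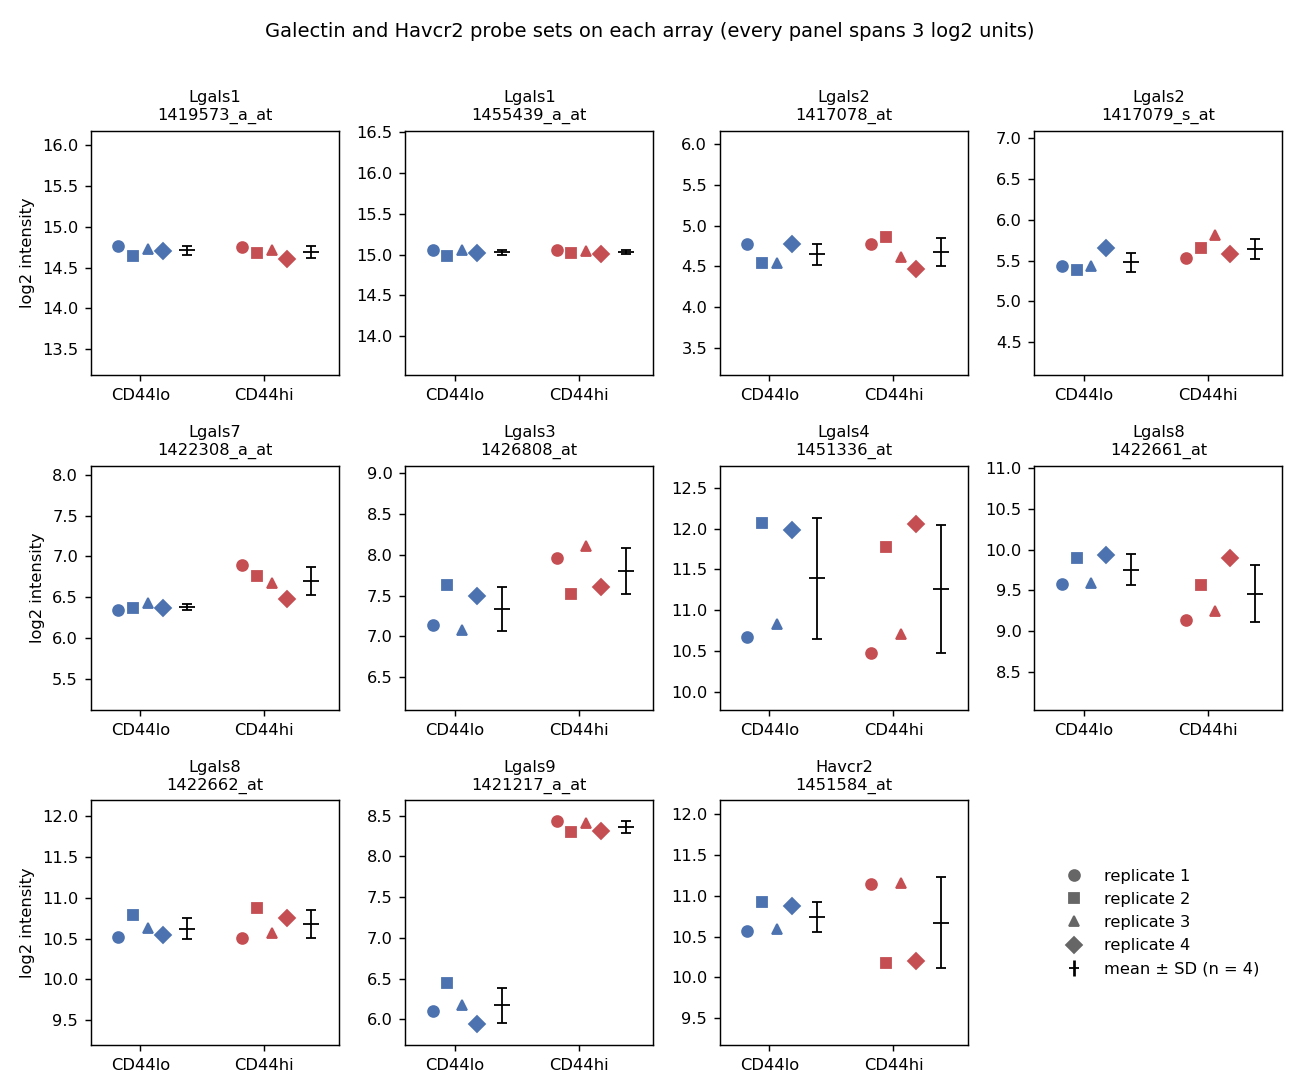
Log2 intensity (y axis) of the 11 galectin and Havcr2 probe sets on each of the 8 arrays, by subpopulation (x axis), with the marker shape giving the replicate number and bars the mean ± SD (n = 4 each); every panel spans the same height. Lgals9 separates the subpopulations with a gap of 1.85, Lgals4 separates replicates 1 and 3 from 2 and 4 in both, and the CD44hi arrays of Havcr2 lie on either side of the CD44lo arrays.

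Among the prototype galectins, Lgals1 codes for galectin-1, which can kill activated T cells. With the first probe set (1419573_a_at) it read 14.75, 14.68, 14.72 and 14.60 in CD44hi replicates 1 to 4 and 14.76, 14.64, 14.73 and 14.70 in CD44lo (log2 intensity). With the other (1455439_a_at) it read 15.06, 15.02, 15.04 and 15.01 against 15.06, 14.98, 15.05 and 15.02. The groups overlapped in both probe sets, and their mean differences (CD44hi minus CD44lo) were -0.02 and 0.004 on the log2 scale. Both probe sets stood at the 99.9th percentile of mean values on the array or above it, and saturation was not tested.

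Lgals2, a galectin of the gut epithelium, read close to the background. Its first probe set (1417078_at) lay between 4.47 and 4.86 in CD44hi and 4.54 and 4.77 in CD44lo, at most 0.84 above the bacterial control median of the same array. Its other probe set (1417079_s_at), of a kind that can share probes with other transcripts, lay between 5.53 and 5.81 and between 5.38 and 5.65. The groups overlapped in both. Such low readings say little of differences in this gene.

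Lgals7, a galectin of stratified epithelium, read 6.89, 6.76, 6.68 and 6.48 in CD44hi replicates 1 to 4 and 6.34, 6.37, 6.43 and 6.37 in CD44lo. The CD44hi values were spread over more than the CD44lo ones, and the gap between the groups was 0.05. The mean difference was 0.33 (1.26-fold), from 6.70 ± 0.17 against 6.38 ± 0.04 (SD over 4 arrays), and at the single replicate numbers it ran from 0.11 to 0.55. The separation is therefore small beside the spread of the CD44hi arrays.

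Lgals3 codes for galectin-3, the chimera type, which can stay inside the cell or join receptors outside it. It read 7.96, 7.52, 8.11 and 7.61 in CD44hi replicates 1 to 4 and 7.14, 7.63, 7.08 and 7.49 in CD44lo. CD44hi was higher at numbers 1 and 3, by 0.82 and 1.03, and close to CD44lo at numbers 2 and 4, with differences of -0.11 and 0.12. The mean difference of 0.46 (SD of the 4 differences 0.55) thus rests on numbers 1 and 3, where it was 0.92, or 1.90-fold, against 0.004 at numbers 2 and 4. Between number sets the 2 groups ran in opposite directions: in CD44hi, numbers 1 and 3 lay 0.47 above 2 and 4, and in CD44lo they lay 0.45 below (a log2 difference of -0.45).

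Galectin-3 is abundant in macrophages, so their markers are given beside it. Of 13 measured macrophage and monocyte markers 0 were called (limma adjusted p under 0.05; 1 had an unadjusted p under 0.05, and 1, Ctss, passed with the replicate block), and 10 lay under the lower quartile of all values in both groups. Over all genes 3.81% were called, or 6.19% with the block, so a count of 0 in a list this short says little. The defining marker Adgre1 was at 4.23 in CD44hi and 4.45 in CD44lo and Csf1r at 5.51 and 5.44. The summed linear intensity of the list was 575 to 1551 in CD44hi and 591 to 1159 in CD44lo, most of it from the lysosomal gene Cd68 (9.18 ± 1.25 and 8.98 ± 0.89, SD, n = 4 each).

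Of the tandem-repeat galectins, Lgals4, known from the intestinal epithelium, read 10.48, 11.78, 10.71 and 12.06 in CD44hi replicates 1 to 4 and 10.67, 12.07, 10.83 and 11.98 in CD44lo. Numbers 2 and 4 were higher than 1 and 3 in both subpopulations, by 2.51-fold in CD44hi and 2.43-fold in CD44lo, whereas the subpopulations overlapped fully and their mean difference was -0.13 (SD of the 4 differences 0.15). Leaving out 1 array at a time unbalances the number sets, and the difference then ran from -0.40 to 0.13. Lgals4 was thus the member that varied most with the replicate number in both groups and hardly with CD44. At least 1 log2 unit between the number sets, in the same direction in both groups, was found for 113 of all probe sets with 1 gene, or 0.554%. Values by replicate number were in view when the members were chosen, so the presence of Lgals4 among these is a description.

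Lgals8, a galectin that binds sialylated glycans and glycans on damaged vesicles, had probe sets that differed. The first (1422661_at) read 9.13, 9.57, 9.24 and 9.89 in CD44hi and 9.58, 9.90, 9.59 and 9.93 in CD44lo. CD44hi was lower at each replicate number, by -0.45, -0.33, -0.35 and -0.03, although the groups overlapped. The other (1422662_at) read 10.51, 10.88, 10.57 and 10.75 against 10.52, 10.79, 10.63 and 10.54, with a mean difference of 0.06 against -0.29 for the first. Which of them reports the transcript better is not known here, so no direction is given for the gene. The first also followed Lgals4 over the arrays (Pearson's r = 0.857 and Spearman's rho 0.81 over 8 arrays, a description in which the number sets are shared by both genes).

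Lgals9 codes for galectin-9, the ligand of TIM-3. It read 8.43, 8.30, 8.41 and 8.31 in CD44hi replicates 1 to 4 and 6.10, 6.45, 6.18 and 5.94 in CD44lo (log2 intensity). Every CD44hi array was higher than every CD44lo array, with a gap of 1.85 between the groups, and the replicates within a group lay close together. The means were 8.36 ± 0.07 and 6.17 ± 0.21 (SD, n = 4 each), a log2 difference of 2.19. At replicate numbers 1 to 4 the difference was 2.33, 1.85, 2.23 and 2.37. The difference was 2.28 over numbers 1 and 3 and 2.11 over 2 and 4, so it did not follow the number sets as Lgals3 and Havcr2 did. A difference of this absolute size or larger was seen in 57 of 20380 probe sets (0.28%), a share given as a description because these values chose the members. Every array read at least 1.97 above its own bacterial control median. Only 1 probe set measured the gene.

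As a measure of RNA quality, the Gapdh controls' 3' end exceeded the 5' end on the log2 scale by 0.76 to 0.877 in CD44hi and 0.65 to 0.73 in CD44lo, without overlap. For Actb the excess was 0.468, 0.795, 0.532 and 0.71 in CD44hi replicates 1 to 4 and 0.38, 0.61, 0.442 and 0.558 in CD44lo, so it overlapped between groups and was higher at numbers 2 and 4 in both, as Lgals4 was. The part of RNA quality in the members' values was not tested. Of 8 measured B cell markers 1 was called, the transcription factor gene Ebf1 (11.89 and 5.30), and the list's summed linear intensity was 3067 to 5746 in CD44hi and 239 to 272 in CD44lo. Without Ebf1, the other 7 summed to 223 to 256 and 210 to 220. The defining B cell genes Cd79a (5.32 and 5.49) and Cd79b (4.96 and 4.75) were low in both. Ms4a1, the gene of the B cell protein CD20, was also low, at 4.99 in CD44hi and 3.68 in CD44lo, but did not overlap between them (difference 1.31, limma adjusted p = 0.0961). In all, 2 of the 8 had an unadjusted p under 0.05, and 1 was called with the replicate block. Of 7 dendritic cell markers 0 were called (limma; 1 at an unadjusted p under 0.05, 0 with the replicate block), with summed intensities of 377 to 451 and 337 to 395. Of 11 fibroblast and stromal markers 1 was called, Pdgfra, which was higher in CD44hi (9.47 and 6.50). With the block 2 were called, since Postn passed in the opposite direction, lower in CD44hi (8.17 and 10.57). Of 7 granulocyte and mast cell markers 0 were called (limma; 1 at an unadjusted p under 0.05, 0 with the block). Beside these counts, 3.81% of all genes were called, or 6.19% with the block, so counts this small in short lists say little. The part of other cell types in the Lgals9 difference was not tested.

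The promoter of Lgals9 is shown because this galectin separated the subpopulations, and that of Havcr2 because its difference turned with the replicate number. Both are the 250 bases before the gene start, from RefSeq (GRCm38.p6), where 7 of the 8 members had an entry. Lgals9 lies on the minus strand (chr11:78984925-78985174) and Havcr2 on the plus strand (chr11:46454681-46454930), and both sequences read 5′ to 3′ along the gene. Capitals mark matches to 7 motifs, searched on both strands in these bases and the 50 that follow.
Lgals9: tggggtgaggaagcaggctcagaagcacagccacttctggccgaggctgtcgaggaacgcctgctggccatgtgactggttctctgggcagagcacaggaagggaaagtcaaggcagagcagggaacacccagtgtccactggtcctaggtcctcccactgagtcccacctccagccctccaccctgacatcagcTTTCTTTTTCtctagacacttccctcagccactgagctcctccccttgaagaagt
Havcr2: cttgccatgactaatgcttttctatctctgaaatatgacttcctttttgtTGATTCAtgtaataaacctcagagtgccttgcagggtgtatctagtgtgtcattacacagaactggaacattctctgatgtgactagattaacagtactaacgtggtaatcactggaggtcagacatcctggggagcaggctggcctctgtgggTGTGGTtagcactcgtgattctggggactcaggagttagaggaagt

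The motifs bind families of factors that act in lymphocytes, the EBF factors mainly in B cells. For STAT proteins the letters were TTCNNNGAA, for T-box factors such as T-bet AGGTGTGA and for EBF factors CCCNNGGG. The AP-1 motif, of Fos and Jun proteins, was searched in a loose form, TGANTCA, with any base in the middle. The GATA motif, of factors such as Gata3, was AGATAA. The RUNX motif, of the core-binding factors, was TGTGGT. The interferon-stimulated response element, bound by interferon regulatory factors, was searched as a pair of GAAA blocks with any 2 bases between them. Lgals9 held the interferon element in a pair of places on the opposite strand, TTTCTTTTTC at -55 to -46 from the start and TTTCTGTTTC at 16 to 25 after it. That element occurred at least once in 3.44% of 32851 promoters of the same length and at least 2 times in 0.225%. A RUNX match after the start of Lgals9 overlapped the second of these by its last base. Havcr2 held a match to the loose AP-1 letters (TGATTCA, with T in the middle, at -200 to -194) and a RUNX match (at -46 to -41). These letters were found in 7.81% and 16.8% of promoters. The GATA, T-box, EBF and STAT letters were in neither window. Among the other members, matches were found for Lgals2 (GATA and EBF) and Lgals8 (RUNX) and not for Lgals3, Lgals4 or Lgals7. A match describes letters in the sequence and is not a bound site.

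Havcr2 codes for TIM-3, a receptor that limits T helper 1 and CD8 T cells and binds galectin-9. It read 11.15, 10.18, 11.16 and 10.20 in CD44hi replicates 1 to 4 and 10.57, 10.92, 10.59 and 10.87 in CD44lo. In CD44hi, numbers 1 and 3 were the highest of the 8 arrays and numbers 2 and 4 the lowest, with the 4 CD44lo arrays between them. The difference was 0.58 and 0.57 at numbers 1 and 3, or 1.49-fold higher in CD44hi, and -0.73 and -0.67 at numbers 2 and 4, or 1.63-fold higher in CD44lo. The mean of -0.07 (SD of the 4 differences 0.74) therefore describes neither set. Pearson's r between Havcr2 and its ligand gene Lgals9 was -0.0469 over all 8 arrays (Spearman's rho 0.333). That value mixes the step of Lgals9 between the groups with the spread inside them. Within CD44hi both genes were higher at numbers 1 and 3 than at 2 and 4, by 0.97 for Havcr2 and 0.11 for Lgals9. In CD44lo the same contrast was -0.31 for Havcr2 and -0.05 for Lgals9, whose values at numbers 2 and 4 lay on either side of the others. A relation within the groups was not tested.

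**Figure D2:**
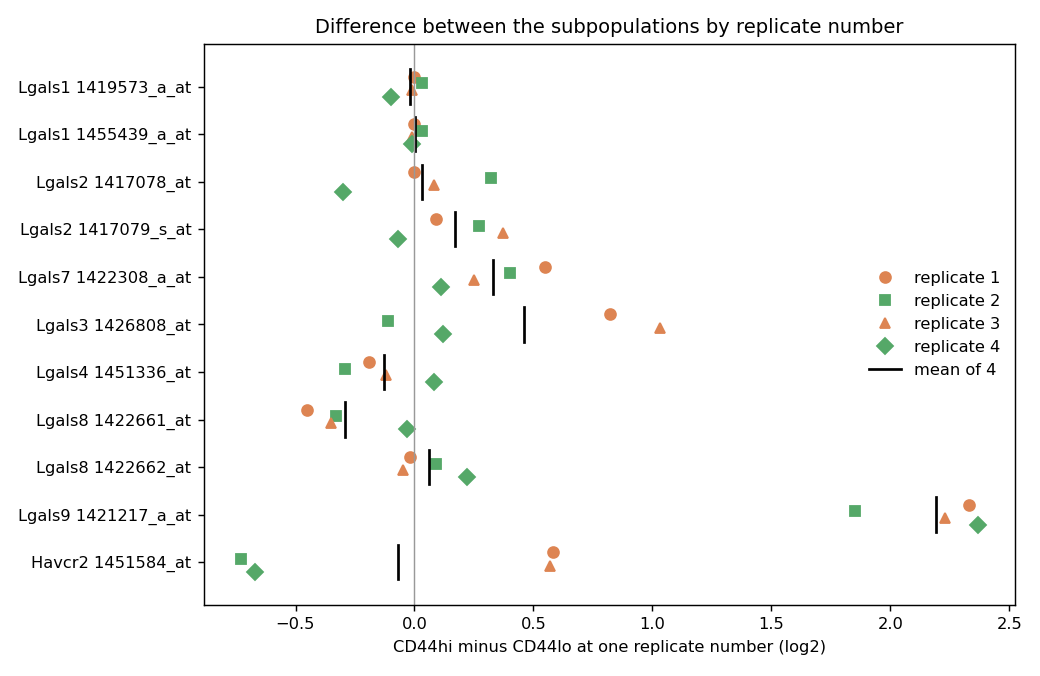
CD44hi minus CD44lo (x axis, log2) at each replicate number for the 11 probe sets (y axis), with black lines at the mean of the 4 numbers; orange marks numbers 1 and 3 and green 2 and 4. The 4 differences of Lgals9 run from 1.85 to 2.37, while those of Havcr2 lie at 0.57 and 0.58 for numbers 1 and 3 and at -0.73 and -0.67 for 2 and 4.

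Turns of this size were counted over the array. With differences of at least 0.5 one way at numbers 1 and 3 and at least 0.5 the other way at 2 and 4, a limit set after the Havcr2 values were seen, 5 of 20380 probe sets (0.0245%) were found, and Havcr2 was among them. The others were Gja1 (connexin 43), which turned the same way, and Fosl2, an AP-1 subunit gene, and a pair of probe sets of Septin4, which turned the opposite way. Gja1 had differences of 0.96, -1.18, 0.54 and -1.27 at numbers 1 to 4, and Fosl2 of -0.57, 1.71, -0.68 and 2.03. The share depends on the limit: Epcam turned the same way, by 0.79 over numbers 1 and 3 and -0.68 over 2 and 4, but missed it at number 4. No other limit was tried. As values by replicate number chose the members, the presence of Havcr2 here is a description.

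The genes most like Lgals9 over the 8 arrays, among 1348 genes that varied by at least 1 log2 unit and reached 7, were Ptprg, a receptor tyrosine phosphatase gene (Pearson's r = 0.996), the sorting marker Cd44 (0.993), Cplx2 (0.991) and Adamts1 (0.988). All of them were high in the 4 CD44hi arrays and low in the 4 CD44lo arrays. Ptprg came closest in size, at 11.14 ± 0.06 and 8.90 ± 0.09 (SD, n = 4 each). These correlations share the 2 groups of arrays and are given as a description.

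For Havcr2 the nearest were Bspry (0.967), Epcam (0.951), Tlr6, an innate immune receptor gene (0.939), and Rxra, a nuclear receptor gene (0.915). Epcam, an adhesion molecule best known from epithelium, read 11.86, 10.78, 11.98 and 11.08 in CD44hi and 11.04, 11.71, 11.22 and 11.52 in CD44lo, so it too was highest in CD44hi 1 and 3. Of the 7 epithelial markers 1 was called, the keratin gene Krt18, which rose by 1.15 (SE 0.23; limma adjusted p = 0.0272). The list's summed linear intensity was 2182 to 4690 in CD44hi and 2660 to 3794 in CD44lo. Among all genes 3.81% were called, so 1 call in a list this short says little of the list. Krt18 read 7.23, 6.22, 7.10 and 6.32 in CD44hi and 5.66, 5.45, 5.76 and 5.43 in CD44lo. Cdh1, the gene of E-cadherin, read 8.29, 6.88, 8.14 and 7.11 in CD44hi and 8.19, 7.67, 8.20 and 7.68 in CD44lo. Both were higher at numbers 1 and 3 within CD44hi, as Havcr2 and Epcam were. Within CD44lo Krt18 and Cdh1 were again higher at numbers 1 and 3, whereas Havcr2 and Epcam were lower there. Krt18 was higher in CD44hi at every replicate number, so it did not turn as Havcr2 did. The other keratins Krt5, Krt8, Krt14 and Krt19 had group means of 5.17 to 6.27, and the part of epithelial transcripts in the Havcr2 pattern was not tested. For Lgals3 the nearest were Ovol1 (0.902), Serpinb6b (0.9), the kinase gene Map3k8 (0.9) and Socs3 (0.895), and the first 3 of these were highest in CD44hi at numbers 1 and 3.

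**Figure D3:**
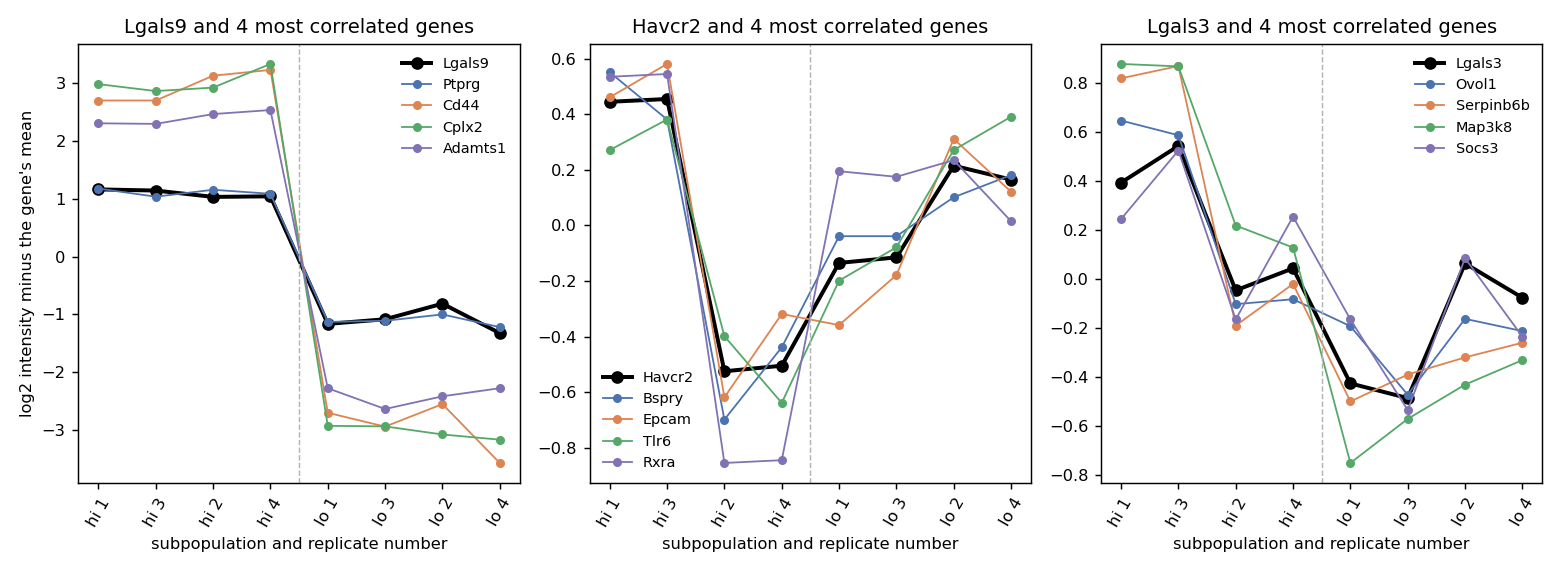
Log2 intensity minus each gene's own mean (y axis) on the 8 arrays (x axis, hi and lo for the subpopulations with the replicate number) for Lgals9, Havcr2 and Lgals3 (black) and the 4 genes most correlated with each (colours); lines only join values of a gene. Lgals9 steps between the subpopulations, while Havcr2 is highest in CD44hi 1 and 3 and lowest in CD44hi 2 and 4.

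Around the galectins, 7 lists of partner genes were compared between the subpopulations, and unlike the members these were tested. Of their 98 measured genes, 2 rose and 3 fell in CD44hi (limma, adjusted p under 0.05 over 12393 genes), or 5.1%, against 3.81% of all genes (2.03% higher and 1.78% lower). The share was near the background. With the replicate number as a block 4 rose and 5 fell, or 9.18%, against 6.19% of all genes. The 4 that rose with the block were B4galt1, St6galnac1, Ifng and Ifngr2. The 2 that rose without it, Cd47 and Tbx21, did not pass with it (limma adjusted p = 0.0595 and 0.0596), so no rise was shared by both fits. St3gal3, St6galnac6 and Vav1 fell in both.

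Of 23 measured sialylation and O-glycan enzymes 0 rose and 2 fell (median difference -0.07, against 0 over all genes). St6galnac6, a sialyltransferase gene, fell by 1.30 (SE 0.12; limma adjusted p = 0.00026), from 10.24 ± 0.08 in CD44lo to 8.94 ± 0.22 in CD44hi (SD, n = 4 each). It read 9.25, 8.73, 8.85 and 8.93 in CD44hi and 10.36, 10.19, 10.19 and 10.20 in CD44lo, without overlap. St3gal3, which adds sialic acid to galactose, fell by 1.09 (SE 0.11; limma adjusted p = 0.000646), from 7.23 to 6.14. Its other probe set differed by 0.01 at means of 5.41 and 5.40, so the fall depends on the probe set. St6galnac1, at 8.11 and 7.33, did not pass (limma adjusted p = 0.271), and with the replicate block it passed as higher (0.00244). St3gal2 was at 7.77 and 8.14 and Galnt2 at 11.36 and 11.54, without passing either.

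Of 23 measured genes of N-glycan branching and chain elongation, which build the ligands of the galectin lattice, 0 were called by limma (2 at an unadjusted p under 0.05, 3 with the replicate block; median -0.02). The nearest to the threshold was B4galt1, which adds the galactose that galectins bind, at 11.99 ± 0.20 (CD44hi) against 11.55 ± 0.12 (SD, n = 4 each; difference 0.44, limma adjusted p = 0.0863, or 0.0238 with the replicate block). Man2a1, a mannosidase gene of the branching pathway, differed by -0.57 and Uap1, of the nucleotide sugar supply, by -0.33 (limma adjusted p = 0.424 and 0.296, or 0.0214 and 0.0342 with the replicate block). The 5 probe sets of Uap1 differed by -0.33 to 0.02, and its most variable one by -0.20 (limma adjusted p = 0.903 without the block), so its value depends on the probe set.

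Of 16 genes of galectin-binding surface proteins 1 rose and 0 fell (median 0.02). Cd47, whose product signals against uptake by phagocytes, rose by 0.63 (SE 0.14; limma adjusted p = 0.0446), from 12.68 ± 0.30 to 13.31 ± 0.09 (SD, n = 4 each). Its 4 probe sets differed by 0.28 to 0.87, all in the same direction, while with the replicate block (limma adjusted p = 0.0595), with arrays centred on their median (0.0502) and without CD44hi replicate 1, 2, 3 or 4 or CD44lo replicate 2 or 4 (0.0837 to 0.131) the gene no longer passed. It also missed the threshold with 32 added to the intensities (0.0503), with array weights (0.0671) and with every probe set tested (0.0533). The difference was 0.30 on numbers 1 and 3 alone (limma adjusted p = 0.0688) and 0.97 on numbers 2 and 4 alone (0.00827). These fits, of 2 arrays a group, measure only the spread inside a number set. Spn (CD43), at 8.80 and 9.07, P4hb (protein disulfide isomerase), at 13.11 and 13.31, and the matrix gene Fn1, at 12.50 and 12.26, did not pass. Tnfrsf9 (4-1BB), a galectin-9 partner, was at 13.16 and 13.24.

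On the receptor side, 8 genes of the TIM family and of TIM-3 ligands and signalling were measured, of which 0 rose and 1 fell (median 0). Vav1, an exchange factor of T cell receptor signalling, fell by 0.85 (SE 0.16; limma adjusted p = 0.0197), from 11.20 ± 0.11 to 10.35 ± 0.34 (SD, n = 4 each). Leaving out CD44hi replicate 2 or 3, or CD44lo replicate 1, 2, 3 or 4, ended that call (adjusted p 0.0504 to 0.0717). Ceacam1, another reported TIM-3 ligand, was at 6.38 and 6.09, Plcg1 at 6.52 and 6.32 and Lcp2 at 12.61 and 12.48, without passing. On numbers 1 and 3 alone Ceacam1 passed as higher (0.58, limma adjusted p = 0.0433), as it did with array weights (0.036). On numbers 2 and 4 alone its difference was -0.003. Its 8 probe sets differed by 0.02 to 0.29.

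Among 10 genes of the T helper 1 programme that induces Havcr2, 1 rose and 0 fell (median 0.07). Tbx21, the gene of the T helper 1 transcription factor T-bet, rose by 0.33 (SE 0.07; limma adjusted p = 0.0454), from 12.80 to 13.13, and no longer passed with the replicate block (0.0596), with arrays centred on their median (0.0619) or with any single array left out (0.0714 to 0.148). Ifngr2, an interferon-gamma receptor subunit gene, was at 8.46 and 7.94 (limma adjusted p = 0.0531, or 0.00743 with the block), and Ifng itself at 12.64 and 12.05 (0.108, or 0.0179 with the block). Nfil3 was at 12.36 and 11.98 and did not pass (limma adjusted p = 0.392). On numbers 2 and 4 alone it passed (0.61, limma adjusted p = 0.0356), and on 1 and 3 alone it did not (0.16, 0.246).

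Of 15 inhibitory receptor and exhaustion genes, which are often expressed with Havcr2, 0 were called by limma at adjusted p under 0.05 (1 at an unadjusted p under 0.05, 0 with the replicate block; median -0.03). Pdcd1, the gene of the receptor PD-1, read 11.00, 9.77, 10.96 and 9.94 in CD44hi and 10.65, 11.75, 10.75 and 11.81 in CD44lo. Like Havcr2 it was higher in CD44hi at numbers 1 and 3, by 0.28, and lower at 2 and 4, by -1.93. Fitted on numbers 2 and 4 alone, the Pdcd1 difference passed (limma adjusted p = 0.00105), and on 1 and 3 alone it did not (0.101). These fits were added after the data were seen, and the change of the difference between number sets was not itself tested. Each compares 2 arrays a group, and arrays of a number set resemble each other. Their p-values therefore measure only the spread inside a number set. Entpd1 was at 6.10 and 5.90 and Nr4a1 at 10.76 and 11.03, the latter passing as lower on numbers 1 and 3 alone (-0.53, limma adjusted p = 0.0233). Of 3 further galectin-related genes measured 0 were called (limma; 0 at an unadjusted p under 0.05 and 0 with the block), and Lgals3bp was at 5.77 and 5.71, Lgals12 at 5.26 in both and Lgalsl at 10.89 and 11.04 (limma adjusted p of 0.516 or more for each).

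**Figure D4:**
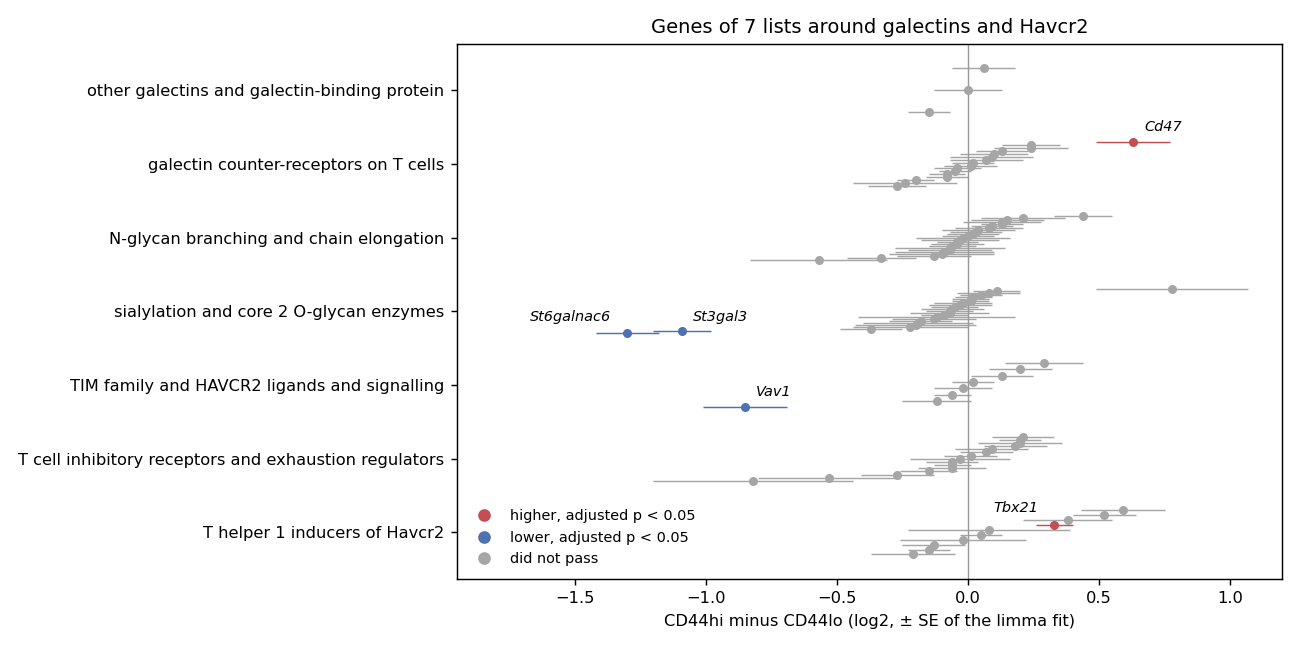
CD44hi minus CD44lo (x axis, log2, ± SE of the limma fit) for each measured gene of the 7 lists (y axis), in red or blue where the adjusted p was under 0.05. The 5 called genes, Cd47 and Tbx21 to the right and Vav1, St3gal3 and St6galnac6 to the left, are named.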

How the data were processed

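Samples were grouped by their titles into CD44hi and CD44lo with replicate numbers 1 to 4. The authors deposited 1 intensity per probe set, computed with RMA per the labels' protocols; its version is not given. They ran from 7.61 to 36128 and were read as linear, and log2 was taken without a pseudocount. RMA compresses differences near background. Symbols came from the platform annotation, 20351 of them found in RefSeq (GRCm38.p6) and 0 changed.

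The members and gene lists were chosen with earlier results of these data known. Every member probe set was described and not tested. Other genes, each represented by its brightest probe set on average, were tested with limma 3.58.1 (lmFit, eBayes, Benjamini-Hochberg adjustment over 12393 genes) in R 4.3.3. Named per list were up to 6 called genes by smallest p and up to 3 others, and the 4 genes most correlated with Lgals9, Havcr2 and Lgals3. Tnfrsf9, marker genes and Gja1, Fosl2 and Septin4 were named after their values were seen. On simulated data of 12393 genes the fit recovered 42.4%, 83.9% and 98.2% of differences of 0.5, 1 and 2, with 4.65% of calls false. The simulated arrays were independent, so these rates leave out the resemblance within number sets.

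Deviations of same-numbered arrays correlated at 0.574, 0.404, 0.533 and 0.531, so, each exceeding 0.1, same-numbered arrays were judged paired. Calls nevertheless come from the fit without a block, which leaves this pairing out, and the blocked fit is an alternative. The choice changes which partner genes pass: Cd47 and Tbx21 passed only without the block. St6galnac1, B4galt1, Man2a1, Uap1, Ifng and Ifngr2 passed only with it. Unlike numbers that are both odd or both even reached 0.372 to 0.521, so number sets more than single pairs are shown.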

Additional observations from a re-analysis of the deposited data

Results flagged for a closer look

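Of 74 groups of 4 values examined for the members and the named partner genes, 3 held an array far from the other 3, and chance flags about 1 in 20. None of the 22 groups of member probe sets was among them. Fn1 was at 12.35 in CD44lo replicate 3 and at 12.22 to 12.23 in the others. St3gal3 was at 7.09 in CD44lo replicate 1 and at 7.26 to 7.30 in the others. St6galnac6 was at 10.36 in CD44lo replicate 1 and at 10.19 to 10.20 in the others.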

How the results depend on the processing

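Fits to replicate numbers 1 and 3, or 2 and 4, alone were added after seeing the data. Each compares 2 arrays a group that resemble each other, so its calls rest only on the spread inside a number set. Of 160 member differences under alternatives 154 stayed within 1 SD of the reported value. Lgals9 moved to 1.79 with 32 added to each intensity and lay between 2.12 and 2.29 when single arrays were left out. Lgals3 moved to 0.92 with numbers 1 and 3 alone and 0.004 with 2 and 4, Havcr2 to 0.57 and -0.70, and the second Lgals8 probe set to -0.12 when averaged with the first. Member probe sets without overlap, 2 in all, numbered 2 to 3 without single arrays. They numbered 6 with numbers 1 and 3 alone and 4 with 2 and 4 alone, where 2 arrays face 2 and separate more easily. The share over all probe sets was not counted in these settings, so nothing is read from these counts. The whole array had 252 higher and 220 lower genes, and alternatives gave 382 and 385 with the replicate block, 403 and 418 with array weights, 422 and 450 with numbers 1 and 3 alone, 141 and 100 at adjusted p under 0.01, and 178 to 230 and 127 to 226 without single arrays (127, 128 and 142 lower without CD44lo replicate 4, 2 or 3). Of the partner genes, 2 rose and 3 fell. Higher ones numbered 0 with arrays centred on their median, 1 with 32 added, with the most variable probe set or with every probe set tested, 4 with the replicate block, 4 with numbers 2 and 4 alone, and 0 to 2 without single arrays. Neither Cd47 nor Tbx21 was among the 4 with the block. Lower ones numbered 5 with the replicate block, 7 with numbers 1 and 3 alone, 5 with 2 and 4 alone, and 2 to 3 without single arrays. Of 95 values of the 5 called partner genes under alternatives 33 lost the call and 0 reversed. St3gal3 and St6galnac6 kept it in every alternative run. For St3gal3 all of these values came from the same probe set, and its other probe set differed by 0.01. The cause of the lost calls was not tested.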
